A study of Homo sapiens with 12 samples.

Results

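Transcripts of 35 genes of glycolysis and of the response to hypoxia were examined by RNA sequencing in breast cancer cells with and without SMARCA4 knock-out (KO). The genes were chosen by symbol, with earlier results of these data known, and all 35 were found among the 11529 genes measured. Of these, 20 belong to glycolysis: 17 enzymes of the pathway from glucose to lactate and 3 regulators of its flux (PFKFB3, PFKFB4 and PDK1). The other 15 belong to the hypoxia-inducible factor (HIF) pathway: the alpha subunits HIF1A and EPAS1, the oxygen sensors EGLN1 and EGLN3, and 11 genes that hypoxia induces.

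Glycolysis splits glucose into pyruvate, which is either reduced to lactate by lactate dehydrogenase or burned in mitochondria. When oxygen is scarce, the EGLN prolyl hydroxylases stop marking HIF alpha subunits for destruction. HIF then binds short DNA motifs, the hypoxia response elements, near glycolytic genes and near genes of angiogenesis, pH control, collagen maturation and mitophagy. Many tumours keep glycolysis high even when oxygen is plentiful. HIF alpha is controlled mainly as a protein, so the level of its transcript does not give its activity.

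MDA-MB-468 and MDA-MB-231 are human triple-negative breast cancer cell lines, the first basal and epithelial, the second mesenchymal. For each line, 3 control samples and 3 SMARCA4 KO samples were sequenced, 12 in all. The controls are labelled wild type in their titles and control in their descriptions. In its immunoblots the study kept wild type apart from control, which there carried a nontargeting vector. SMARCA4 encodes an ATPase of the SWI/SNF chromatin remodelling complex. KO cells carried lentiCRISPR-v2, which delivers Cas9 and a guide RNA against SMARCA4, and were puromycin-selected polyclonal pools rather than clones, so unedited cells could remain. Whether the sequenced wild type cells carried a vector is not given in the sources used here, so effects of vector and selection cannot be told apart from those of the KO. No drug treatment or low-oxygen exposure of the sequenced cells is named in the sources used here, and the oxygen level of the cultures is not given there. The labels do not say whether the 3 samples of a group came from separate cultures, so p-values measure only the spread between these samples. In bulk RNA, a change in the share of some cells and a change in RNA per cell cannot be told apart.

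Values were log2(FPKM + 1), called log2 values below, where FPKM is the fragments scaled to transcript length and to the mapped fragments of the library. As a check of the labels, SMARCA4 had 44.3% of its control FPKM after KO in MDA-MB-468 and, after KO in MDA-MB-231, 32.7%, with all KO samples below all controls (log2 fold changes -1.16 and -1.57, limma adjusted p = 0.014 and 0.0014). Summed FPKM of a sample ran from 673808 to 715537, and the read depth is unknown. The summed FPKM of 7 epithelial and basal genes was 2290 to 2420 in MDA-MB-468 controls and 2430 to 3120 in their KO samples, against 262 to 405 and 413 to 463 in MDA-MB-231. The sum of 6 measured mesenchymal genes of 7 was 927 to 1050 and 862 to 962 in MDA-MB-468. In MDA-MB-231 it was 2240 to 2570 and 1940 to 2160. Most of the MDA-MB-468 sum was CD44, the only one of them higher in MDA-MB-468 controls (mean 889.9 against 482.3 FPKM). VIM, for example, had 2.607 FPKM in MDA-MB-468 controls and 1309 in MDA-MB-231 controls, and SNAI2 was listed at 0 in MDA-MB-468. Of 9 markers of other cells only CD68 was in the table, at 1.19 to 2.38 FPKM in MDA-MB-468 and 92.7 to 110 in MDA-MB-231. The part of these differences between KO and control in the results below was not tested.

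Single samples stood apart on the 35 genes. MDA-MB-231 control replicate 1 was the lowest of its group for 32 of the 35, and control replicate 3 the highest for 27. Among the KO samples of that line, replicate 3 was the lowest for 28 and replicate 2 the highest for 23. MDA-MB-468 control replicate 1 was the highest of its group for 10 of 13 genes (both oxygen sensors and the 11 hypoxia-induced genes), with a median deviation of 0.27 log2 from the group mean. Over all genes, no sample's median deviation from its group mean lay outside -0.0134 to 0.0153. Results are therefore given with and without these control samples where they matter.

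Of the genes called in a KO comparison, LDHB lies at chr12:21788276-21910791 (minus strand), PFKP at chr10:3108525-3179910 (plus), PGK1 at chrX:77166236-77384792 (plus), PDK1 at chr2:173420101-173473397 (plus), EGLN3 at chr14:34393433-34931980 (minus), MXI1 at chr10:111967363-112047123 (plus) and ADM at chr11:10326620-10328944 (plus), all protein-coding. These are the widest extents of the annotated transcripts in GRCh37 (GENCODE 44), the build of the authors' alignment, and the values are per gene, with no split by exon.

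To show the HIF motif, promoter windows of 300 bases (250 before to 50 after the annotated start of a gene) were taken from RefSeq (GRCh38.p14). The motif core searched was ACGTG or GCGTG, or on the other strand CACGT or CACGC, and the palindrome CACGTG counts on both strands. PGK1 (chrX:78103998-78104297, plus strand) and EGLN3 (chr14:33951025-33951324, minus strand) are shown because they were higher in MDA-MB-231 KO cells, ADM (chr11:10304823-10305122, plus strand) because it was lower there, and LDHB (chr12:21657793-21658092, minus strand) because it was higher in MDA-MB-468 KO cells. Each is written 5′ to 3′ on the strand of the gene, with cores in capitals.
PGK1: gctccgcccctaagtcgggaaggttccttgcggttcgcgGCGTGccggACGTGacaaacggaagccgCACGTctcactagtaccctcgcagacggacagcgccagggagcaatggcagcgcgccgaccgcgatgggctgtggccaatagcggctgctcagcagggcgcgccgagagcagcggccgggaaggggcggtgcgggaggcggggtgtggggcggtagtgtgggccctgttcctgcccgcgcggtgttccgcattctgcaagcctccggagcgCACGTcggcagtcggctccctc
EGLN3: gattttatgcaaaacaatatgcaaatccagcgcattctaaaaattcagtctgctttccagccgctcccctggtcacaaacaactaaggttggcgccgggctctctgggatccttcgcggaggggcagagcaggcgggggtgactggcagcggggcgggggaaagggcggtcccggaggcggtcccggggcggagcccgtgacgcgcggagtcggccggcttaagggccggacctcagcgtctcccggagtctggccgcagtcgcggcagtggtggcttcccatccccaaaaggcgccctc
ADM: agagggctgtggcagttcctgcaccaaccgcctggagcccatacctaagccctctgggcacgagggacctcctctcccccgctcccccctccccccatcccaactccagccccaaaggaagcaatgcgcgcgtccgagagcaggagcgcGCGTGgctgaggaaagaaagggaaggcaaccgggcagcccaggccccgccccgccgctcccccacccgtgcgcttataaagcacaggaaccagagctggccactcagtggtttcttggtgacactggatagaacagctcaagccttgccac
LDHB: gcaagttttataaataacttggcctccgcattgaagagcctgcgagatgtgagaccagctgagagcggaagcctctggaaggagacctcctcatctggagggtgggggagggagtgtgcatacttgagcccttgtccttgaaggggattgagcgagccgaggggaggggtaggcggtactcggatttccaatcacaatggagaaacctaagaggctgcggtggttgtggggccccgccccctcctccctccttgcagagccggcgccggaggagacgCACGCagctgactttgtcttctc
The PGK1 window held 4 cores, the ADM and LDHB windows 1 each and the EGLN3 window 0. Of 57 windows for 32 of the 35 genes, 38 (66.7%) held at least 1 core, against 17012 of all 35116 windows (48.4%). In 29 of the 32 genes at least 1 window held a core. The share of all genes that did so was not computed, and some of the 32 had several windows. These counts leave out VEGFA, NDRG1 and BNIP3L, for which no window was used. Whether RefSeq holds a window for them was not tested. A match describes letters only and shows no binding.

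The control cells of the lines already differed widely. Control MDA-MB-231 cells held more glycolytic transcript: the 17 enzymes made up 1.96% ± 0.17 (SD, n = 3) of all FPKM there and 1.18% ± 0.0081 (SD, n = 3) in control MDA-MB-468 cells. Between the controls, 26 of the 35 genes differed (limma, Benjamini-Hochberg adjusted p under 0.05 over all genes and absolute log2 difference over 0.5), of which 23 were lower in MDA-MB-468 and 3 higher. Of all genes, 64.2% differed, 31.4% lower and 32.8% higher in MDA-MB-468. The median difference of the 35 genes, MDA-MB-468 minus MDA-MB-231, was -1.23 log2, and that of all genes was 0.01. Of the 35 differences 8 were positive, against 50.3% of all genes, and 30 of the 35 had an adjusted p under 0.05, against 84.8% of all genes.

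**Figure D1:**
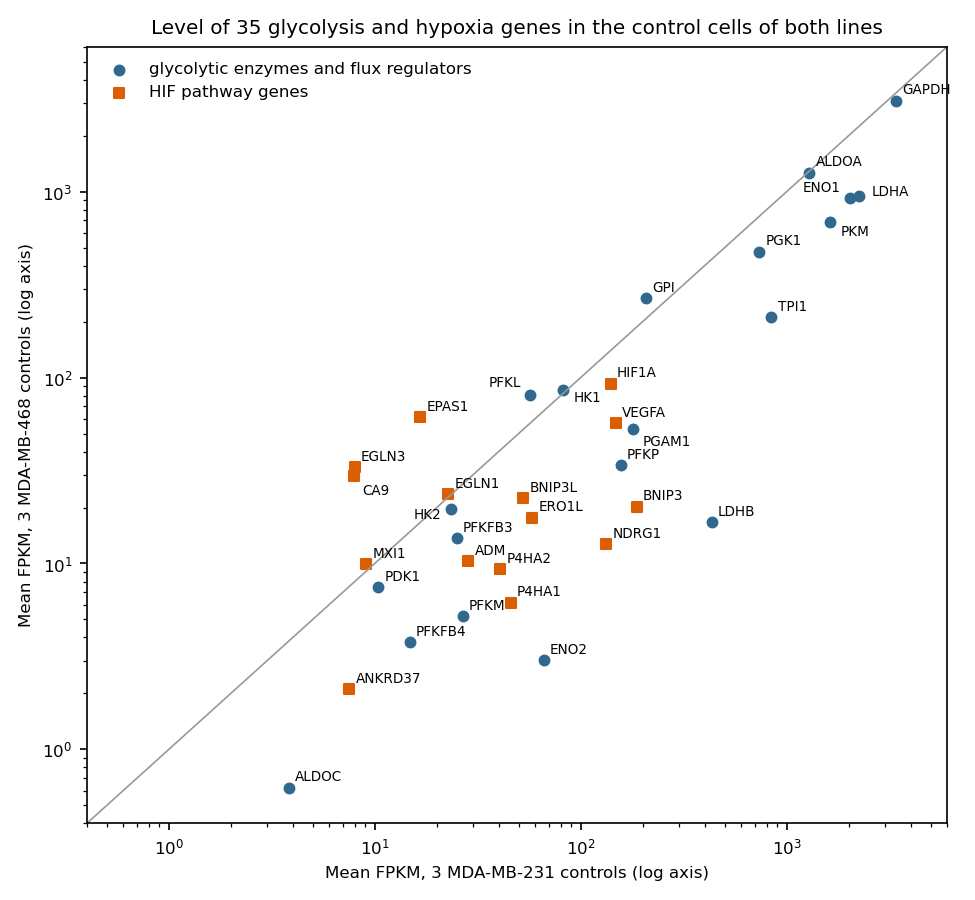
Mean FPKM of each gene in the 3 MDA-MB-231 controls (x) and the 3 MDA-MB-468 controls (y), both on log axes, with a line of equal level; circles are glycolysis genes and squares HIF pathway genes. Most points lie below the line, LDHB and ENO2 far below it, while EPAS1, EGLN3 and CA9 lie farthest above it.

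GAPDH, which oxidizes glyceraldehyde phosphate and is a common reference for RT-qPCR, was the most abundant of the 35 in both lines, with a mean of 3085 FPKM in control MDA-MB-468 cells and 3416 in control MDA-MB-231 cells. ALDOA, an aldolase, was almost level at 1266 and 1292 FPKM. LDHA (944.1 and 2256 FPKM), ENO1 (925.5 and 2034) and PKM (688.3 and 1623) lay below ALDOA in MDA-MB-468 and above it in MDA-MB-231. ALDOC was the lowest, at 0.6233 and 3.827 FPKM.

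LDHB, the lactate dehydrogenase subunit of heart and of many oxidative tissues, showed the widest gap of the 35 genes between the controls, with 16.72 FPKM for MDA-MB-468 against 432.9 for MDA-MB-231, a log2 difference of -4.62 (standard error 0.10, limma adjusted p = 5.4e-13). ENO2, the neuronal enolase, followed with 3.013 and 66.11 FPKM, a log2 difference of -4.06 (standard error 0.16, limma adjusted p = 1.8e-10). NDRG1, a stress gene that HIF induces, was at 12.76 and 133.3 FPKM, a log2 difference of -3.60 (standard error 0.47, limma adjusted p = 1.4e-05). Its MDA-MB-468 controls had 27.35, 6.02 and 4.91 FPKM, and without the first of these the difference was -4.32. LDHA (-1.25), PKM (-1.23), VEGFA (-1.38) and ADM (-1.36) were also lower in MDA-MB-468, with adjusted p from limma of 2.2e-06 or less.

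A trio of HIF pathway genes went the other way. EGLN3, an oxygen sensor that HIF itself induces, had 32.84 FPKM in control MDA-MB-468 cells and 7.983 in control MDA-MB-231 cells, a log2 difference of 1.94 (standard error 0.22, limma adjusted p = 4.6e-06). EPAS1, the HIF-2 alpha subunit, had 61.43 and 16.67 FPKM (difference 1.83, standard error 0.10, limma adjusted p = 3.3e-09). CA9, a membrane carbonic anhydrase of pH control, had 29.49 and 7.893 FPKM (difference 1.80, standard error 0.31, limma adjusted p = 1.8e-04). HIF1A was lower in MDA-MB-468, at 92.81 against 140.2 FPKM (log2 difference -0.59, standard error 0.09, limma adjusted p = 8.3e-05), so that the alpha subunits differed between the lines in opposite directions. Without MDA-MB-231 control replicate 2 the HIF1A difference was -0.497 and under the fold threshold, with an adjusted p of 3.8e-04 in limma.

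The 9 genes not called between the controls were HK1, HK2, GPI, PFKL, ALDOA, GAPDH, PDK1, EGLN1 and MXI1. For 4 of them (HK2, GPI, PFKL and PDK1) the adjusted p was under 0.05 and only the fold threshold was missed, with log2 differences of -0.23, 0.36, 0.496 and -0.43.

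In MDA-MB-468 cells, few of the 35 genes were called after SMARCA4 KO. LDHB and PFKP were higher in KO cells, and 0 of the 35 were lower by limma at the threshold above. That is 2 of 35 genes, where 2.14% of all genes were called, 1.33% higher and 0.815% lower. At an unadjusted p under 0.05, without the fold threshold, the count was 9 of 35 against 25.1% of all genes. All KO samples lay above all controls for 5 of the 35 genes and below them for 4, where 17.5% and 13.5% of all genes did so. The 35 genes split into 15 positive and 20 negative log2 fold changes with a median of -0.02. Of all genes 53.6% were positive, with a median of 0.02.

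LDHB had log2 values of 3.94, 4.13 and 4.35 in control replicates 1 to 3 and 5.81, 5.76 and 5.62 in KO replicates 1 to 3. Every KO sample lay more than 1 log2 unit above every control. Its log2 fold change was 1.59 (standard error 0.12, limma adjusted p = 0.014), and mean FPKM rose from 16.72 to 52.09. Even so, KO cells of this line stayed far below the 432.9 FPKM of control MDA-MB-231 cells. The call was lost in limma, with fold changes near the full one, without control replicate 2 (1.59, adjusted p = 0.081), KO replicate 2 (1.58, 0.075) or KO replicate 3 (1.65, 0.061).

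PFKP, the platelet isoform of phosphofructokinase, which commits sugar phosphate to glycolysis, had log2 values of 4.996, 5.106 and 5.235 in controls and 5.619, 5.975 and 6.107 in KO cells. The groups did not overlap. The log2 fold change was 0.79 (standard error 0.14, limma adjusted p = 0.047), a mean FPKM of 176% of the control. The adjusted p was close to the threshold. It was 0.050 with quantile normalization and 0.052 with a pseudocount of 0.1, neither a call, and leaving out any sample other than KO replicate 1 raised it to between 0.10 and 0.16 in limma. Without KO replicate 1, ENO2 was called too, which made 3 genes.

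HK2, the inducible hexokinase that traps glucose in the cell, had log2 values of 4.52, 4.30 and 4.29 in controls and 3.87, 3.88 and 3.93 in KO cells. All KO samples lay below all controls, with a mean FPKM of 70.3% of the control. The log2 fold change of -0.48 (standard error 0.07, limma adjusted p = 0.035) missed the fold threshold and was not called. In a fit blocked on the replicate number its adjusted p was 0.068, and with a pseudocount of 0.1 HK2 was called (limma).

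**Figure D2:**
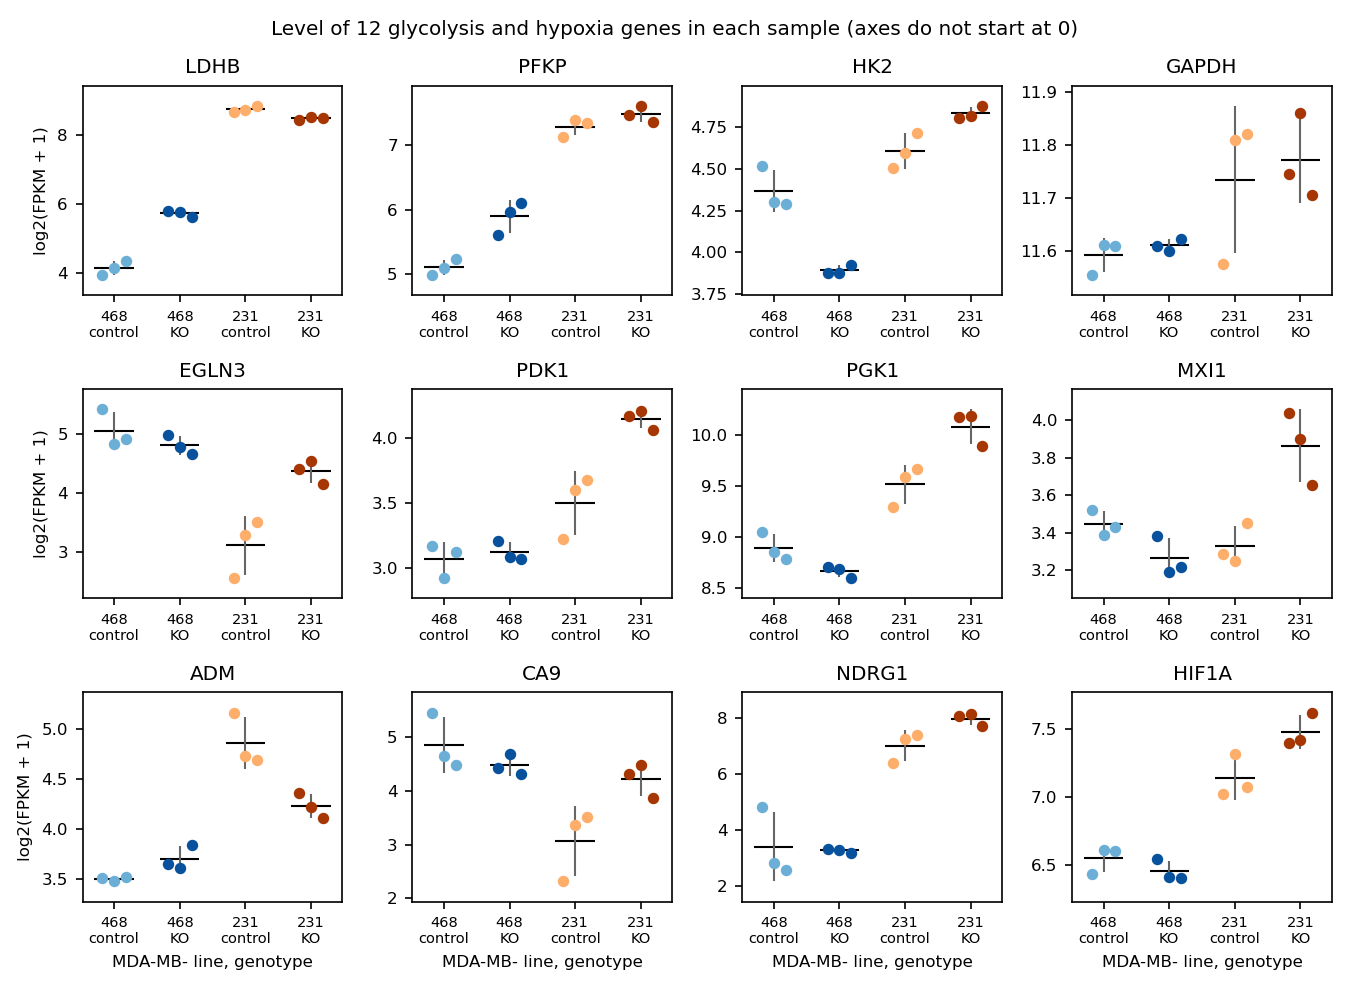
Log2 value of 12 genes in each sample (points, replicates 1 to 3 from left to right), with group means (bars) and SD (lines), n = 3, for control and KO cells of both lines. LDHB and PFKP were higher in MDA-MB-468 KO cells, and EGLN3, PDK1, PGK1 and MXI1 in MDA-MB-231 KO cells.

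The fold changes of the other 14 enzymes lay between -0.23 and 0.30. PFKL, the liver phosphofructokinase, and PGK1, which makes the first ATP of the pathway, had fold changes of -0.17 and -0.23 (limma adjusted p = 0.19 and 0.16). LDHA had log2 values of 9.75, 9.97 and 9.93 in controls and 10.02, 10.09 and 10.18 in KO cells (fold change 0.22, standard error 0.08, limma adjusted p = 0.16). PKM, the last enzyme before pyruvate, had a log2 fold change of 0.00 with a 95% interval of -0.11 to 0.11. GAPDH had log2 values of 11.55, 11.61 and 11.61 in controls and 11.61, 11.60 and 11.62 in KO cells, and its mean FPKM was 101% of the control.

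Of the 15 HIF pathway genes in MDA-MB-468, 0 were called by limma, where 2.14% of all genes were, and 2 (ADM and MXI1) had an unadjusted p under 0.05, where 25.1% of all genes did. HIF1A had log2 values of 6.437, 6.61 and 6.602 in controls and 6.54, 6.42 and 6.41 in KO cells (fold change -0.09, 95% interval -0.27 to 0.08). EPAS1 had 5.90, 6.03 and 5.97 in controls and 5.98, 5.82 and 5.95 in KO cells (fold change -0.05, 95% interval -0.20 to 0.11). Neither subunit separated the groups.

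Some hypoxia-induced genes of this line were widely spread among the controls. NDRG1 had log2 values of 4.83, 2.81 and 2.56 in control replicates 1 to 3 and 3.32, 3.30 and 3.17 in KO cells. Control replicate 1 was over 2 log2 units above its peers and decided the sign: the fold change was -0.13 with all samples and 0.58 without it (limma adjusted p = 0.92 and 0.088). CA9 showed the same sample as highest, with 5.46, 4.66 and 4.48 in controls and 4.44, 4.69 and 4.31 in KO cells (fold change -0.38, 95% interval -1.06 to 0.29), and its fold change was -0.086 without that sample. VEGFA, the angiogenic growth factor, had 6.16, 5.53 and 5.79 in controls and 5.84, 5.59 and 5.73 in KO cells, a fold change of -0.11 that was 0.06 without control replicate 1.

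In MDA-MB-231 cells, the 35 genes leaned upward in KO cells. PGK1, PDK1, EGLN3 and MXI1 were higher and ADM was lower (limma, same thresholds), 5 of 35 genes. Of all genes 3.7% were called, 2.39% higher and 1.31% lower. Of the 35 log2 fold changes, 31 were positive, against 47.6% of all genes, and the median was 0.34, against -0.01 over all genes. All 3 KO samples lay above all 3 controls for 21 of the 35 genes and below them for 2 (LDHB and ADM), where 16.6% and 19.4% of all genes did so. With all samples scaled to the same 75th percentile, 5 genes were called higher (P4HA2 in addition) and 0 lower by limma, with ADM at an adjusted p of 0.063.

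**Figure D3:**
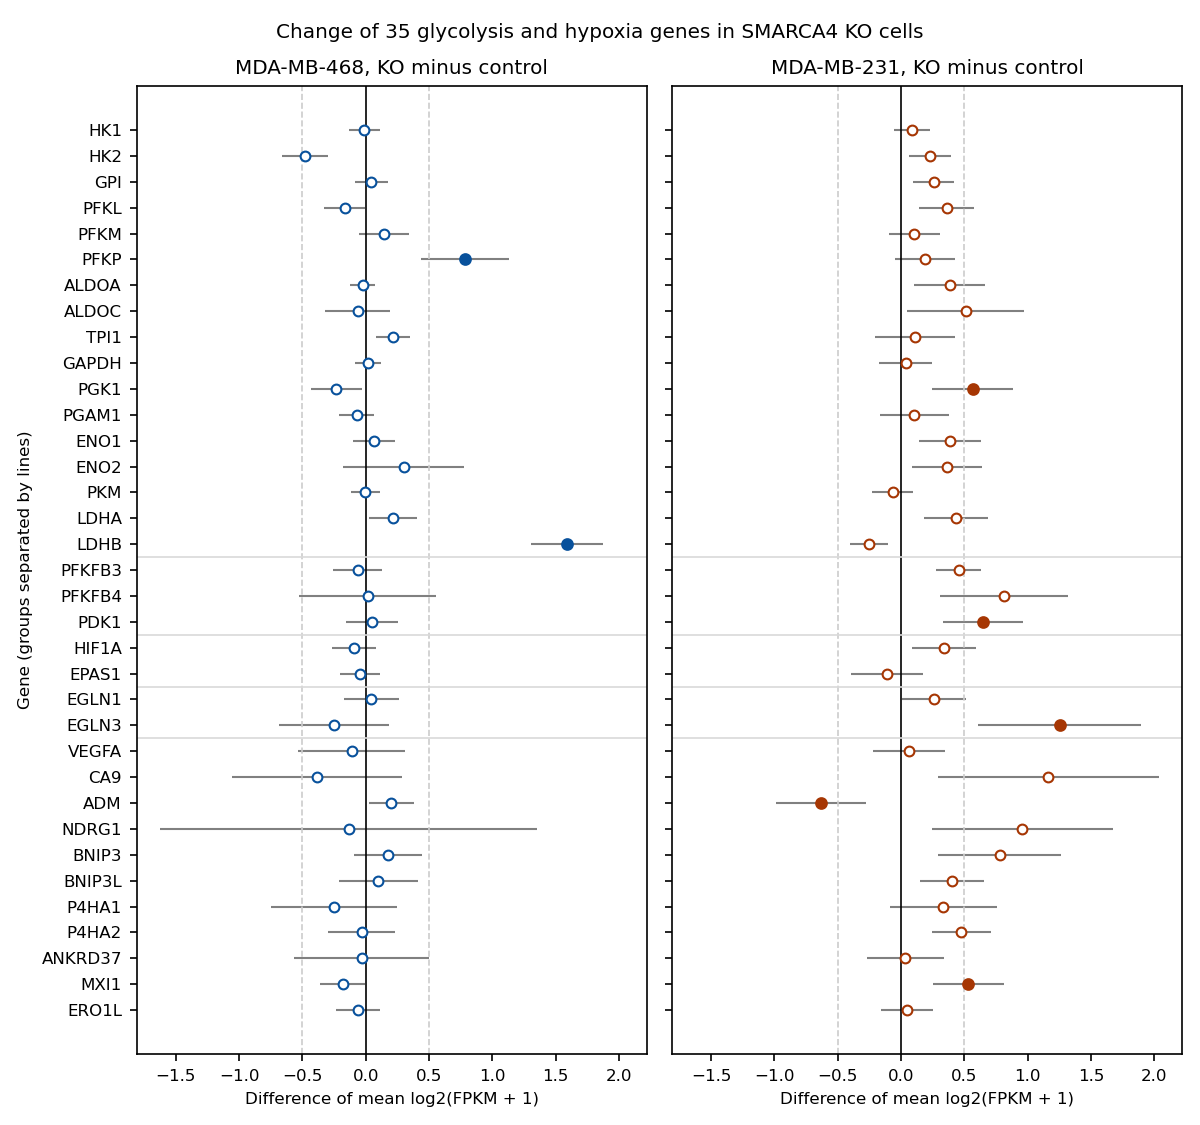
KO minus control log2 fold change of the 35 genes in MDA-MB-468 (left) and MDA-MB-231 (right), with 95% intervals of limma (lines). Filled points passed the test and the fold threshold; dashed lines mark that threshold, and horizontal lines separate enzymes, flux regulators, HIF subunits, oxygen sensors and hypoxia-induced genes.

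The lean did not rest on the low control sample alone. Without MDA-MB-231 control replicate 1, 27 of 35 fold changes were positive (46.2% of all genes) with a median of 0.26 (all genes -0.01), and 22 of the 35 genes lay above the controls and 4 below, against 19.6% and 24.7% of all genes. The calls of single genes were weaker than the lean. In limma, leaving out control replicate 1 kept PDK1 and EGLN3, leaving out KO replicate 3 kept MXI1, and leaving out control replicate 3 kept none of the 5 and called PFKFB4. Without control replicate 2, KO replicate 1 or KO replicate 2, 0 of the 35 genes were called by limma, and 9, 6 and 7 passed the fold threshold at an unadjusted p under 0.05.

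Among the enzymes only PGK1 was called. Its log2 values were 9.30, 9.59 and 9.66 in controls and 10.17, 10.18 and 9.89 in KO cells, without overlap. The log2 fold change was 0.57 (standard error 0.13, limma adjusted p = 0.048), a mean FPKM of 148% of the control. It fell under the fold threshold, at 0.46, without control replicate 1 (limma adjusted p = 0.091).

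A further 8 of the 17 enzymes had an adjusted p between 0.05 and 0.1 in limma, where 10.6% of all genes did (HK2, GPI, PFKL, ALDOA, ENO1, ENO2, LDHA and LDHB), 7 of them with positive fold changes of 0.23 to 0.43. LDHA had log2 values of 10.92, 11.23 and 11.25 in controls and 11.58, 11.63 and 11.48 in KO cells (fold change 0.43, standard error 0.10, limma adjusted p = 0.053). HK2 had 4.50, 4.60 and 4.72 in controls and 4.81, 4.82 and 4.87 in KO cells, PFKL 5.74, 5.92 and 5.90 in controls and 6.20, 6.36 and 6.09 in KO cells. In LDHA, HK2 and PFKL every KO sample lay above every control.

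LDHB was the exception, with 8.68, 8.75 and 8.85 in controls and 8.46, 8.54 and 8.52 in KO cells. All KO samples lay below the controls, with a fold change of -0.25 (standard error 0.06, limma adjusted p = 0.052). PKM had 10.54, 10.72 and 10.73 in controls and 10.62, 10.61 and 10.57 in KO cells (fold change -0.06, 95% interval -0.23 to 0.10), and the groups overlapped. GAPDH had 11.57, 11.81 and 11.82 in controls and 11.75, 11.86 and 11.71 in KO cells, a mean FPKM of 102% of the control (fold change 0.04, 95% interval -0.17 to 0.25). The upward lean was thus not shared by the most abundant enzyme. In sum, the 17 enzymes made up 1.756%, 2.054% and 2.062% of FPKM in the controls and 2.305%, 2.44% and 2.184% in KO cells, with every KO sample above every control. In MDA-MB-468 KO cells the share was 1.2% ± 0.032 (SD, n = 3).

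All 3 flux regulators had every KO sample above every control in MDA-MB-231, and 1 was called. Of all genes, 16.6% had every KO sample above every control there, and 3.7% were called. PDK1, which switches off pyruvate dehydrogenase and so keeps pyruvate out of mitochondria, had 3.22, 3.60 and 3.68 in controls and 4.17, 4.21 and 4.07 in KO cells. Its log2 fold change was 0.65 (standard error 0.13, limma adjusted p = 0.037), and it was 0.51 without control replicate 1 (adjusted p = 0.036). PFKFB3 makes the sugar bisphosphate that activates phosphofructokinase. It had 4.59, 4.75 and 4.75 in controls and 5.06, 5.24 and 5.15 in KO cells, with a fold change of 0.46 that passed the test but not the fold threshold (standard error 0.07, limma adjusted p = 0.023). PFKFB4, of the same enzyme family, had a larger fold change of 0.81 with more spread (standard error 0.21, limma adjusted p = 0.059).

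HIF1A had 7.02, 7.31 and 7.07 in controls and 7.39, 7.41 and 7.62 in KO cells, without overlap (fold change 0.34, standard error 0.10, limma adjusted p = 0.089). EPAS1 had 3.88, 4.22 and 4.30 in controls and 4.03, 4.08 and 3.97 in KO cells (fold change -0.11, 95% interval -0.39 to 0.18), with fold changes of -0.23 without control replicate 1 and -0.0239 without control replicate 3. Neither subunit was called.

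EGLN3 gave the largest fold change of the 35 genes in this line. Its log2 values were 2.55, 3.28 and 3.51 in controls and 4.40, 4.54 and 4.16 in KO cells. The groups did not overlap, and the control replicates differed among themselves by almost 1 log2 unit. The log2 fold change was 1.25 (standard error 0.26, limma adjusted p = 0.040) and 0.97 without control replicate 1 (adjusted p = 0.041), and mean FPKM went from 7.983 to 19.72. EGLN1, the more broadly expressed sensor, had a fold change of 0.26 (limma adjusted p = 0.15).

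Of the 11 hypoxia-induced genes, 1 was called higher (MXI1), 1 lower (ADM), and 10 fold changes were positive. Of all genes in this line, 2.39% were called higher, 1.31% lower, and 47.6% were positive. MXI1, a MAX partner that opposes MYC, had 3.29, 3.25 and 3.45 in controls and 4.04, 3.90 and 3.66 in KO cells (fold change 0.53, standard error 0.11, limma adjusted p = 0.041). P4HA2, a subunit of the enzyme that hydroxylates collagen, had 5.186, 5.44 and 5.504 in controls and 5.89, 5.89 and 5.78 in KO cells (fold change 0.48, standard error 0.09, limma adjusted p = 0.036) and missed the fold threshold only.

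CA9 and NDRG1 had larger fold changes with more spread among the controls. CA9 had 2.31, 3.37 and 3.51 in controls and 4.32, 4.49 and 3.86 in KO cells (fold change 1.16, standard error 0.35, limma adjusted p = 0.089), and 0.79 without control replicate 1. NDRG1 had 6.37, 7.26 and 7.39 in controls and 8.05, 8.12 and 7.72 in KO cells (fold change 0.96, standard error 0.29, limma adjusted p = 0.088). In both genes all KO samples lay above all controls. The mitophagy receptors BNIP3 and BNIP3L had fold changes of 0.78 and 0.40 (limma adjusted p = 0.060 and 0.061).

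ADM, which encodes the vasodilator adrenomedullin and is among the usual HIF targets, went against the rest. It had 5.17, 4.73 and 4.70 in controls and 4.36, 4.23 and 4.12 in KO cells, without overlap. The log2 fold change was -0.63 (standard error 0.14, limma adjusted p = 0.049), with 62.7% of the control FPKM in KO cells, and -0.48 without control replicate 1 (adjusted p = 0.058). Each of the other samples, left out in turn, also ended the call (limma adjusted p from 0.073 to 0.14). VEGFA had 7.004, 7.415 and 7.221 in controls and 7.31, 7.35 and 7.17 in KO cells (fold change 0.06, 95% interval -0.22 to 0.34), and its groups overlapped. ERO1L, an oxidase of the endoplasmic reticulum, and ANKRD37 had fold changes within 0.05 of 0.

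**Figure D4:**
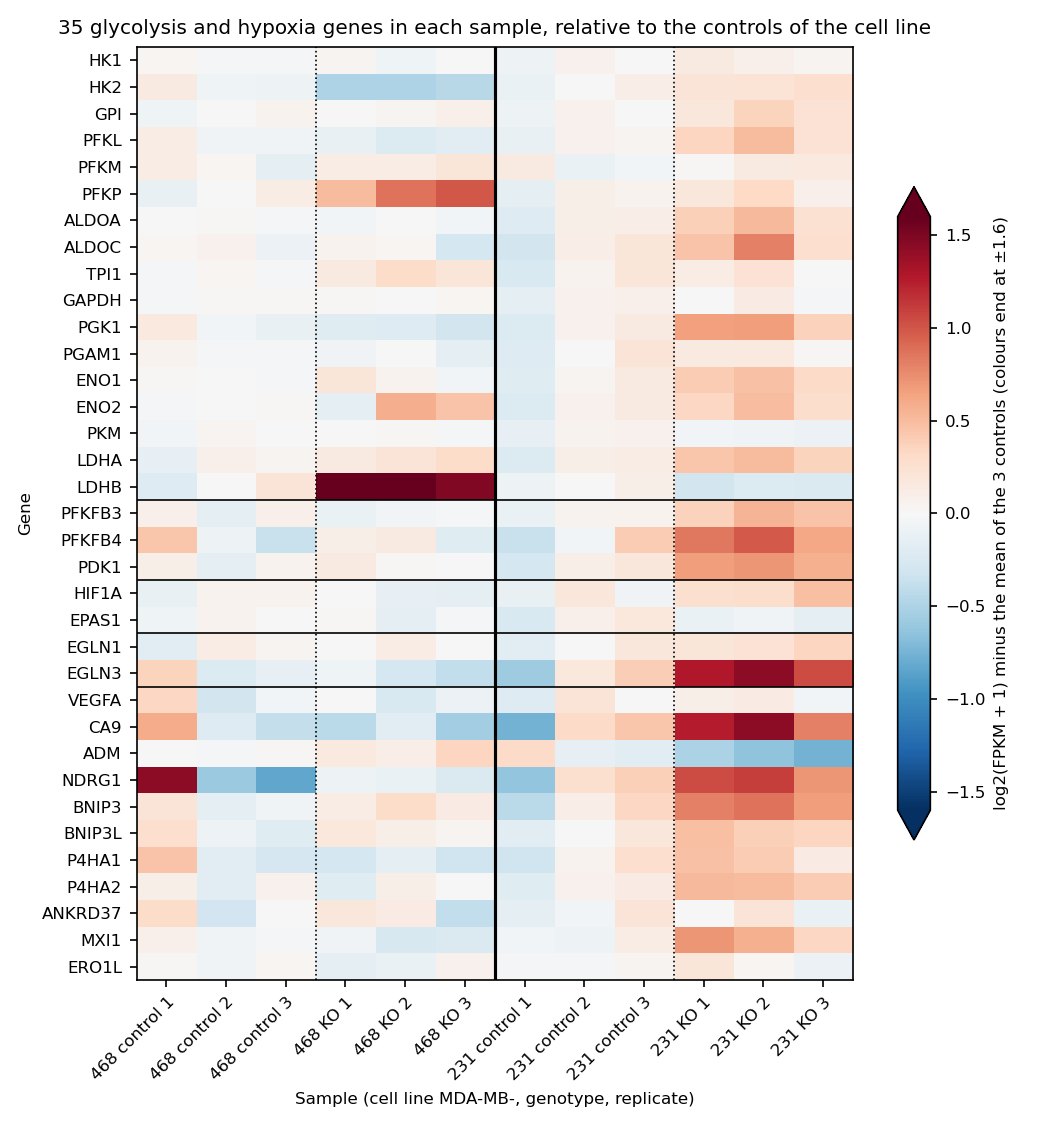
Each cell gives the log2 value of a gene (rows, in role order) in 1 sample (columns) minus the mean of the 3 controls of that cell line; red is higher, blue lower, and colours end at 1.6. MDA-MB-231 KO samples were red for most rows and blue for LDHB, ADM, PKM and EPAS1. In MDA-MB-468 KO samples red was seen mainly for LDHB and PFKP. MDA-MB-231 control replicate 1 was pale blue in most rows.

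The difference between the lines was tested directly, as the KO change in MDA-MB-468 minus that in MDA-MB-231. It was called for 12 of the 35 genes, 3 with a higher and 9 with a lower change in MDA-MB-468. Of all genes 8.71% were called, 4.29% higher and 4.41% lower. After scaling to the same 75th percentile, 11 of the 35 were called, 2 higher and 9 lower, and the split over all genes was 394 higher of 1004 in place of 495 of 1004. The median difference of the 35 genes was -0.30 log2, and 7 of the 35 differences were positive, against 53.1% of all genes.

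LDHB differed most, by 1.84 (standard error 0.14, limma adjusted p = 3.1e-05), with a fold change of 1.59 in MDA-MB-468 against -0.25 in MDA-MB-231. ADM also had opposite signs, 0.20 and -0.63 (difference 0.83, standard error 0.17, limma adjusted p = 0.0089). PFKP was positive in both lines (difference 0.60, standard error 0.17, limma adjusted p = 0.041).

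The 9 genes with the lower change in MDA-MB-468 were HK2, PFKL, PGK1, PFKFB3, PDK1, EGLN3, CA9, P4HA2 and MXI1. EGLN3 (-1.50, standard error 0.32) and CA9 (-1.55, standard error 0.45) differed most, with adjusted p from limma of 0.012 and 0.040. PGK1 differed by -0.80 (standard error 0.16), MXI1 by -0.71 (standard error 0.14) and HK2 by -0.70 (standard error 0.11), with limma adjusted p of 0.0086, 0.0080 and 0.0022.

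HK2, PGK1, LDHB, EGLN3, ADM and MXI1 were called in limma whichever single sample was left out, and also without the first control replicate of both lines. PFKL, PFKP, PFKFB3, PDK1, CA9 and P4HA2 lost the call in at least 1 fit without a single sample. CA9 and P4HA2 also lost it in a fit blocked on the replicate number (limma adjusted p = 0.056 and 0.087), which called 10 of the 35. CA9, for example, was -1.17 without MDA-MB-231 control replicate 1 and -1.25 without MDA-MB-468 control replicate 1 (limma adjusted p = 0.059 and 0.086). The number called fell to 7 without MDA-MB-231 control replicate 1 and to 6 without MDA-MB-468 control replicate 1, MDA-MB-231 KO replicate 2, or the first controls of both lines. For HIF1A the difference of -0.43 passed the test (limma adjusted p = 0.048) but not the fold threshold.

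Several of these enzymes have paralogues that catalyse the same step, so the share of each paralogue in its family's FPKM was computed. In MDA-MB-468, LDHB was 1.636%, 1.624% and 1.949% of LDHA plus LDHB in controls and 5.026%, 4.652% and 3.991% in KO cells. In MDA-MB-231 it was 17.4%, 15.19% and 15.93% in controls and 10.33%, 10.44% and 11.34% in KO cells. The share of LDHB thus moved in opposite directions in the lines, without overlap of groups in either, and LDHA held most of the family in all 12 samples.

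In MDA-MB-468, PFKP was 24.94%, 28.86% and 30.86% of the phosphofructokinase FPKM in controls and 37.63%, 45.21% and 46.63% in KO cells, while PFKL went from 67.4% ± 2.7 to 52.6% ± 4.7 (SD, n = 3 each). PFKL stayed the most abundant isoform in each of these samples, whereas PFKP was the main isoform of MDA-MB-231 (65% ± 1.8 in controls and 63.5% ± 0.54 in KO cells; SD, n = 3 each). HK2 was 18.6% ± 1.1 of HK1 plus HK2 in MDA-MB-468 controls and 14% ± 0.56 in KO cells, and 22.1% ± 1.1 and 23.9% ± 1.1 in MDA-MB-231 (SD, n = 3 each). EGLN3 was 19.68%, 27.81% and 28.74% of EGLN1 plus EGLN3 in MDA-MB-231 controls and 43.53%, 45.38% and 36.8% in KO cells. In MDA-MB-468 the EGLN3 share was above 50% in every sample of both groups. A two-sided exact permutation test of 3 samples against 3 cannot give a p below 0.1, so shares are given without a test.

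**Figure D5:**
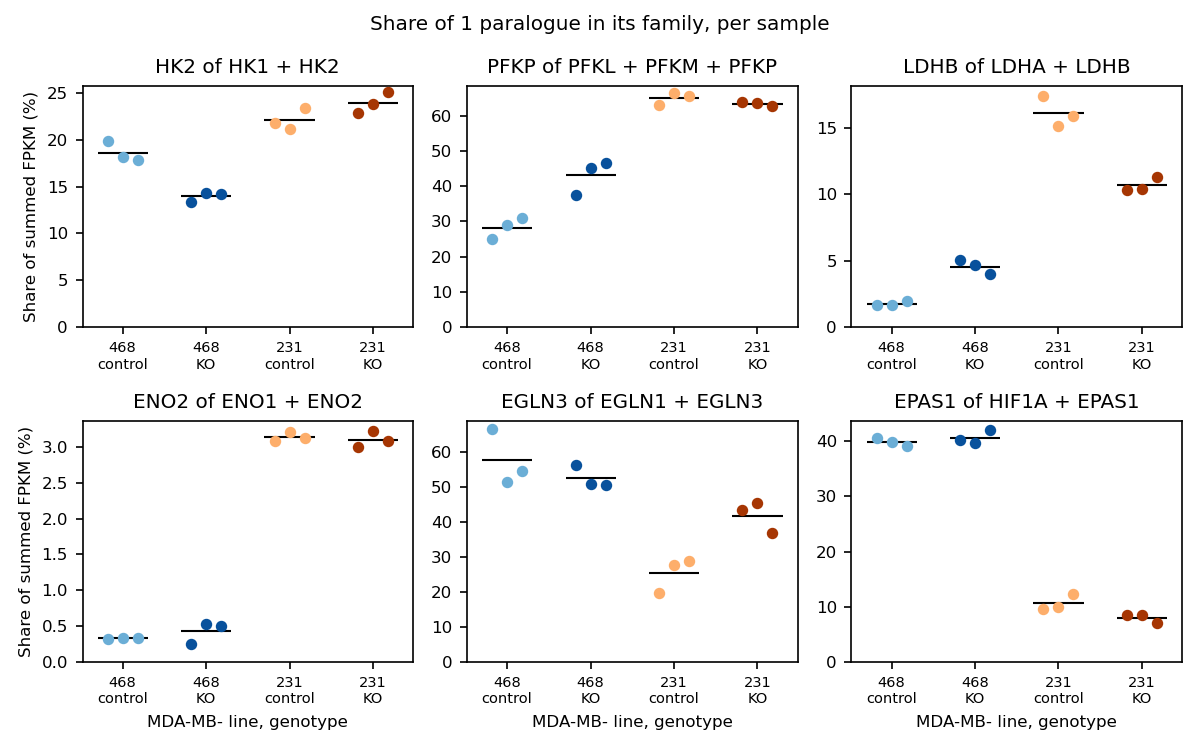
Share of 1 paralogue in the summed FPKM of its family (%) in each sample (points) with the group mean (bars), for control and KO cells of both lines. The LDHB share was higher in MDA-MB-468 KO cells and lower in MDA-MB-231 KO cells, and the PFKP share was higher in MDA-MB-468 KO cells.

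A further 79 measured genes of the same pathways were counted in the same fits. In MDA-MB-468, 2 were higher (LOXL2, 0.60, and SLC6A8, 0.59, limma adjusted p = 0.033 and 0.038) and 0 lower by limma. Of all genes, 1.33% were called higher there and 0.815% lower. An unadjusted p under 0.05 was reached by 25 of the 79, where 25.1% of all genes did so. In MDA-MB-231, 5 were higher (among them ANGPTL4, TGM2, SLC6A8 and INSIG2) and 3 lower (PGM2, LOX and MPC1). Of all genes, 2.39% were called higher in that line and 1.31% lower. Of the 8 glucose and lactate transport genes, SLC2A1 and SLC16A3 included, 0 were called in either line by limma, and the number at an unadjusted p under 0.05 was 4 in MDA-MB-468, against 2 in MDA-MB-231, where 25.1% and 31.2% of all genes were. The 12 HIF regulators, such as VHL and ARNT, also had 0 calls in either line by limma, with 3 at an unadjusted p under 0.05 in each.

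The 28 further hypoxia-induced genes were mostly positive in MDA-MB-231 as well. There, 26 of the 28 fold changes were positive (47.6% of all genes) with a median of 0.31, and all KO samples lay above all controls for 18 and below for 1 (16.6% and 19.4% of all genes). In MDA-MB-468, 10 of the 28 were positive (53.6% of all genes) and the median was -0.06. ANGPTL4, a secreted lipase inhibitor, had the largest fold change in MDA-MB-231 (1.37, limma adjusted p = 0.017), followed by TGM2, a transglutaminase (0.89, limma adjusted p = 0.0078). LOX, which crosslinks collagen and elastin, was lower (-0.54, limma adjusted p = 0.039), and with ADM it was the other called exception.

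The 31 genes of side branches and of mitochondrial entry did not share the lean. In MDA-MB-231, 14 of the 31 fold changes were positive (47.6% of all genes) and the median was -0.07. In that line 1 of the 31 was called higher and 2 lower, where 2.39% and 1.31% of all genes were. PGM2, a sugar phosphomutase, and MPC1, part of the carrier that takes pyruvate into mitochondria, were lower (-0.66 and -0.51, limma adjusted p = 0.010 and 0.025).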

How the data were processed

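RNA of 12 samples was sequenced after TruSeq stranded mRNA library preparation. After Trimmomatic, the authors mapped the reads to hg19 by STAR, took gene FPKM from RSEM and removed genes with a low mean or SD of FPKM. They deposited log2(FPKM + 1) values, where no gene had a mean FPKM below 1.07 or an SD below 1. The annotation is not given in the sources used here. The values are not counts, RSEM splits reads between paralogues by estimate, and FPKM was rounded, so read numbers could not be recovered and depth, counting intervals and detection floors are unknown. A fold change on this scale understates that of low genes.

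KO and control were compared per line with limma 3.58.1 in R 4.3.3 (lmFit, eBayes without trend), as the study's methods state for the test and thresholds: Benjamini-Hochberg adjusted p under 0.05 over 11529 genes and a log2 change beyond 0.5 in either direction. The lines' difference and the comparison of controls came from 1 fit of 12 samples in 4 groups. Groups were taken from the sample labels. The 35 genes and the lists of further genes and markers were chosen with earlier results of these data known, so their counts are descriptions. Genes named with values are those called in a KO comparison or in the difference between lines, the 3 largest control differences in each direction, and HIF1A, EPAS1, LDHA, PKM, HK2, GAPDH, VEGFA and CA9. PFKFB4, BNIP3, BNIP3L, EGLN1, ERO1L and ANKRD37 in MDA-MB-231, and ALDOA, ALDOC, ENO1 and GPI in the controls, were named after their values were seen.

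ERO1L is the older symbol of ERO1A. In 18 rows a date stood in place of the symbol, and these rows stayed in the tests unnamed. Sample titles number the replicates. In MDA-MB-468, deviations of same-numbered KO and control samples from their group means correlated across genes at 0.254, 0.161 and 0.119. In MDA-MB-231 the values were -0.054, 0.074 and -0.115. Samples of unlike number reached 0.131 (MDA-MB-468) and 0.221 (MDA-MB-231), and deviations within a group cancel, so these values cannot decide pairing. The descriptions hold a number after the letter p, of unstated meaning. It runs from 10 to 12 in both MDA-MB-231 groups, in title order. In MDA-MB-468 it runs from 26 to 28 in controls and 25 to 27 in KO samples. No pairs are stated, so the main fits used none and blocks were alternatives. Alternatives were a pseudocount of 0.1, a filter on low values, 75th percentile and quantile scaling, a trend, 1 fit of all samples, replicate blocks, other thresholds and leaving out each sample. Leaving out the first controls of both lines together, and counting non-overlapping genes under the scalings and without single samples, were added after the data were seen. The fits were tested on simulated data. Promoter windows came from RefSeq tables, and figures were drawn with matplotlib 3.10.9. The values of 1 of the further pathway genes are not reported here.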

Additional observations from a re-analysis of the deposited data

Results flagged for a closer look

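For 12 of the 35 genes the KO change differed between the lines by the interaction test of limma. The differences, MDA-MB-468 minus MDA-MB-231 on the log2 scale, were 1.84 for LDHB, 0.83 for ADM and 0.60 for PFKP. They were -0.70 for HK2, -0.53 for PFKL, -0.80 for PGK1, -0.52 for PFKFB3 and -0.59 for PDK1 among the other glycolysis genes, and -1.50 for EGLN3, -1.55 for CA9, -0.51 for P4HA2 and -0.71 for MXI1 among the other HIF pathway genes. The first control replicate was the lowest of its group for 32 of the 35 genes in MDA-MB-231 and the highest for 20 of the 35 in MDA-MB-468. Without both samples HK2, PGK1, LDHB, ADM, EGLN3 and MXI1 were still called, and PFKL, PFKP, PFKFB3, PDK1, CA9 and P4HA2 were not. What set these samples apart was not tested.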

How the results depend on the processing

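The number of the 35 genes called depended on the setting. In MDA-MB-468 it was 2 as reported, 1 with quantile normalization or a fold threshold of 1, and 0 in limma with the p number of the sample descriptions as a replicate block (2 at an unadjusted p under 0.05 with the fold threshold, as for all such counts here). In MDA-MB-231 it was 5 as reported, 2 with a pseudocount of 0.1 and 9 with 1 fit of all samples. It was 1 with a fold threshold of 1 and 10 at an unadjusted p. With the replicate block by title number it was 0 in limma (10 at an unadjusted p). Whether the title numbers pair samples is not known, so that setting cannot be set aside. The title number as a replicate block changed no call of the 35 in MDA-MB-468 (adjusted p of LDHB 0.045 and PFKP 0.046). Between the lines it was 12, 10 with the title number block (CA9 and P4HA2 lost), 7 with the p number block, 3 with a fold threshold of 1 and 6 without the first controls of both lines, chosen after seeing the data. Leaving out single samples gave 0 to 3, 0 to 2, 6 to 13 and, for the controls of the lines, 26 to 27.

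Over all genes the counts were 247, 426, 1004 and 7397. For both KO comparisons the study reported fewer genes, and the reason was not tested. The counts here varied with the setting. These counts were 53, 85, 217 and 4148 with a fold threshold of 1, and 432, 1248 and 1699 without one in the first 3 comparisons. In MDA-MB-468 there were 537 with 1 fit of all samples, 614 at an unadjusted p and 0 in limma with the p number block (582 at an unadjusted p). In MDA-MB-231 there were 0 in limma with the replicate block (576 at an unadjusted p). Between the lines there were 616 with the p number block and 627 without the first controls. Leaving out single samples gave 0 to 474, 99 to 311, 724 to 1190 and 7354 to 7419; the 0 were without MDA-MB-468 control replicate 2 or KO replicate 2 (616 and 540 at an unadjusted p in limma).

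No gene called in a comparison changed sign there. In MDA-MB-231, GAPDH was -0.0582 and PKM 0.0501 with quantile normalization. Without single samples, fold changes near 0 crossed it, and the number of positive ones among the 35 was 14 to 19 in MDA-MB-468 and 27 to 31 in MDA-MB-231. Among the genes with sample values given, those that crossed in MDA-MB-468 were EPAS1 (-0.0808 to 5e-04), NDRG1 (-0.55 to 0.58), P4HA2 (-0.11 to 0.0472), PDK1 (-0.0222 to 0.10), PKM (-0.0257 to 0.0218) and VEGFA (-0.26 to 0.0563), and in MDA-MB-231 GAPDH (-0.0438 to 0.0791) and VEGFA (-0.0441 to 0.16). The causes were not tested.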
